A study of Homo sapiens with 12 samples.

Results

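The classical MHC class II chains are the 7 genes HLA-DRA, HLA-DRB1, HLA-DRB5, HLA-DPA1, HLA-DPB1, HLA-DQA1 and HLA-DQB1, taken by symbol from a table of 44700 genes, and all 7 were found there. They were followed in SK-MEL-5 and MALME-3M, both lines of human melanoma, without and with interferon gamma (IFN-γ), which T cells and NK cells secrete when activated. Each of the 4 groups had 3 libraries of total RNA. Both lines carry the genotype label WT. SK-MEL-5 received 150 ng/mL IFN-γ and was grown in MEM with 10% serum, while MALME-3M received 200 ng/mL and was grown in IMDM with 20% serum, so line, dose and medium cannot be told apart in any comparison between the lines. Exposure lasted 24 h in both and began when the cells were plated. The labels speak of triplicate wells and not of separate experiments, so p-values measure the spread between these libraries only.

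MHC class II molecules present peptides from endosomes to CD4+ T cells. Each is a pair of an alpha and a beta chain, made by the A and B genes of the DR, DP and DQ families. B cells, dendritic cells and macrophages make class II constantly, whereas most other cells make it only after IFN-γ, which acts through JAK kinases and IRF1 to switch on CIITA, the class II transactivator. CIITA does not bind DNA itself and works through the RFX, CREB and NF-Y factors that sit on the X and Y boxes before each class II gene. Class II on melanoma cells is a well-known feature of some melanomas and varies between lines.

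All 7 genes lie on chromosome 6 (GENCODE 29, GRCh38): HLA-DRA at chr6:32439842-32445046, plus strand; HLA-DRB5 at chr6:32517343-32530287, minus strand; HLA-DRB1 at chr6:32578769-32589848, minus strand. HLA-DQA1 was at chr6:32628179-32647062, plus strand, and HLA-DQB1 at chr6:32659467-32668383, minus strand. HLA-DPA1 at chr6:33064569-33080775, minus strand, and HLA-DPB1 at chr6:33075926-33087201, plus strand, point in opposite directions and share 96 nt of exon sequence. The stretches before the start sites are shown because the factors through which CIITA works are known to bind there, and because all 7 genes moved together below. They come from RefSeq promoters (GRCh38.p14), read 5′ to 3′ on the strand of the gene, with matches to the X motif AGNNACNGA and the Y motif ATTGG in capitals. HLA-DPA1 is shown for the second of its start sites, because the first was searched and held neither motif.
HLA-DRB1, chr6:32589876-32589942: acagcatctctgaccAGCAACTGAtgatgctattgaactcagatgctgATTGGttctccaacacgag
HLA-DRB5, chr6:32530359-32530425: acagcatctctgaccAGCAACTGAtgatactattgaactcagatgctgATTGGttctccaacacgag
HLA-DPA1, chr6:33073695-33073763: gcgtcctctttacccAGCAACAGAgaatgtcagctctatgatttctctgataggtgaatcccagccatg
HLA-DPB1, chr6:33075846-33075910: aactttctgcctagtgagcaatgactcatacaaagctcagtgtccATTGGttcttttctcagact
HLA-DQA1, chr6:32637289-32637356: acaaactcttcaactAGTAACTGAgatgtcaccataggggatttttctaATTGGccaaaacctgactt
HLA-DQB1, chr6:32666727-32666793: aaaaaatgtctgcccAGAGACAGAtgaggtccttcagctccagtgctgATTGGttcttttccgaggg

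An X motif followed on the same strand by a Y motif, 15 to 35 nt further on, was present before HLA-DRB1, HLA-DRB5, HLA-DQA1 and HLA-DQB1. The gap was 24 nt in HLA-DRB1, HLA-DRB5 and HLA-DQB1 and 25 nt in HLA-DQA1. HLA-DPA1, at its second start site, held the X motif and HLA-DPB1 the Y motif without the other at that spacing. Over 35116 RefSeq promoters of the same length (250 nt before the start to 50 nt after), searched on both strands, 15.3% held the X motif, 34.6% the Y motif and 0.276% the spaced pair. The motif letters were chosen after these promoters had been read, so the matches are a description, and a missing match says only that these letters are not in this window. HLA-DRA had no promoter among the sequences used here.

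**Figure D1:**
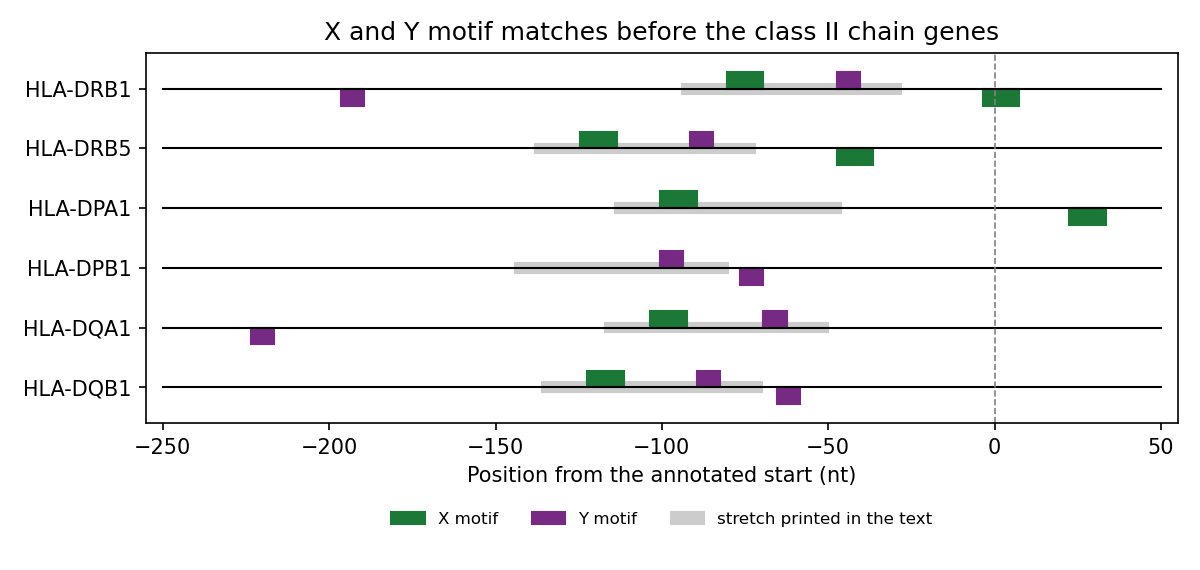
Positions of X motif and Y motif matches in the promoter of each of 6 class II chain genes, in nt from the annotated start (dashed line). Blocks above a line match the strand of the gene and blocks below it the other strand; the spaced X and Y pair, 24 or 25 nt apart, is seen in HLA-DRB1, HLA-DRB5, HLA-DQA1 and HLA-DQB1.

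The libraries held 15514412 to 22921184 gene counts. Levels are counts per 1e6 counts on TMM-scaled library sizes (CPM), and a gene is called where its edgeR quasi-likelihood p, adjusted by Benjamini-Hochberg over 15810 genes, is below 0.05. All 8 melanocyte markers, MITF and SOX10 among them, were detected in each group, at a summed 5743 to 6426 CPM per library. Of 18 leukocyte markers, those of cells that make class II constantly, PTPRC (CD45) was at 0 in all 6 MALME-3M libraries and at 0.633 CPM in untreated and 0.703 CPM in treated SK-MEL-5. The summed leukocyte markers were 1.97 to 2.89 CPM in SK-MEL-5 and 102 to 124 CPM in MALME-3M, where ITGAX, FCER1G and LAPTM5 made up nearly all of it and TYROBP was at 0. T and NK cell markers summed to at most 0.847 CPM, fibroblast markers to 130 to 189 CPM in SK-MEL-5 and 15.3 to 19.5 CPM in MALME-3M, and endothelial markers to 12.8 to 42.7 CPM. Untreated SK-MEL-5, which had more class II RNA than untreated MALME-3M, was thus the line with PTPRC counts, and the part of that signal in the class II levels was not tested.

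In untreated SK-MEL-5 class II RNA was low but countable for all 7 genes. HLA-DRA, the alpha chain shared by all DR molecules, had 3.37, 2.63 and 2.18 CPM in the 3 libraries. HLA-DRB1, the main DR beta chain, had 1.65, 2.36 and 2.18 CPM. HLA-DRB5, a further DR beta gene carried by only some chromosomes, had 0.318, 0.534 and 0.507 CPM. All 3 DR genes thus had counts in each library. HLA-DPA1, the DP alpha chain, had 3.63, 2.67 and 2.94 CPM, and its partner HLA-DPB1 had 0.509, 0.935 and 1.52 CPM. HLA-DQA1, the DQ alpha chain, stood at 0.254, 0.134 and 0.0507 CPM, which are 4, 3 and 1 counts. Its partner HLA-DQB1 had 1.34, 1.38 and 0.862 CPM. In bulk RNA, a few cells with much class II RNA and many cells with little cannot be told apart.

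Untreated MALME-3M had almost none, with 1 exception. HLA-DRA had 0, 0 and 1 count in the 3 libraries, HLA-DRB1 had 1, 0 and 0, and HLA-DRB5 and HLA-DQA1 had 0 in all 3. HLA-DPB1 had 1, 2 and 1 counts and HLA-DQB1 had 2, 0 and 2. Only HLA-DPA1 was counted well in each library, at 0.902, 0.965 and 0.729 CPM (15, 16 and 14 counts). The floor of 3 counts over the group corresponds to 0.0572 CPM in this group.

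The untreated lines did not overlap for any of the 7 genes, and all 7 were called lower in MALME-3M. Among all genes tested 37.2% were called lower in this comparison, and 38.1% did not overlap in that direction, so a call between the lines is common. The median fitted log2 difference over the 7 genes was -4.45, against -0.016 over all genes. It was -3.62 with the 2 genes at 0 counts in MALME-3M set to the floor of 3 counts. HLA-DPA1 had the smallest difference, 3.52-fold by pooled counts (95% interval 2.52 to 5.00, for counting error only), with a log2 difference of -1.81 ± 0.17 (SE, edgeR adjusted p = 1.07e-08). HLA-DPB1 was 13.4-fold (4.95 to 50.6) and HLA-DQB1 15.6-fold (5.83 to 58.9) higher in SK-MEL-5. For HLA-DRA the ratio was 140 (24.8 to 5579) and for HLA-DRB1 110 (19.5 to 4398), each against 1 count and, without the library that held it, against 0. HLA-DRB5 was 8.15-fold and HLA-DQA1 2.41-fold higher in SK-MEL-5 with the 0 counts set to the floor. These values take no counting error on the 27 and 8 SK-MEL-5 counts, so they are no interval ends. When only the 6 untreated libraries were fitted, HLA-DRB5, HLA-DPB1 and HLA-DQA1 had too few counts to be tested, and the other 4 were called.

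IFN-γ raised all 7 genes in SK-MEL-5, and the treated and untreated libraries did not overlap for any of them. Of all genes tested, 5.98% were called higher here and 11.7% did not overlap in that direction. HLA-DPA1 reached 33.3, 36.8 and 34.5 CPM, an 11.5-fold rise (9.87 to 13.5; log2 3.52 ± 0.10 SE, edgeR adjusted p = 2.11e-15). HLA-DRA reached 24.6, 30.3 and 31.8 CPM, a 10.7-fold rise (9.05 to 12.7; log2 3.42 ± 0.15, edgeR adjusted p = 1.7e-12). The intervals of these alpha chains overlap. HLA-DPB1 reached 18.2, 18.0 and 19.1 CPM and had the largest fold of the 7, 18.0 (13.9 to 23.9; log2 4.18 ± 0.21, edgeR adjusted p = 1.32e-11). HLA-DRB1 reached 11.8, 12.5 and 13.3 CPM, 5.92-fold (4.87 to 7.24), and HLA-DRB5 2.10, 2.64 and 2.08 CPM, 4.89-fold (3.21 to 7.72). Both DR beta genes thus had intervals below that of HLA-DRA. HLA-DQB1 reached 8.71, 11.5 and 6.71 CPM, 7.64-fold (5.93 to 9.98). HLA-DQA1 reached 0.880, 1.02 and 1.04 CPM, 7.06-fold with a wide interval (3.33 to 17.2; log2 2.76 ± 0.52, edgeR adjusted p = 0.00148), and was not called with transcript-level estimated counts (edgeR adjusted p = 0.215). The median log2 change of the 7 was 2.91, against -0.027 over all genes.

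In MALME-3M IFN-γ took the same genes from near 0 to levels above those of SK-MEL-5. All 7 were called higher and did not overlap, where 9.51% of all genes were called higher and 16.6% did not overlap in that direction. HLA-DPA1 reached 97.2, 88.8 and 92.5 CPM, 108-fold over untreated (80.4 to 148; log2 6.74 ± 0.12, edgeR adjusted p = 2.17e-18). HLA-DQB1 reached 56.1, 55.5 and 61.7 CPM, 760-fold (297 to 2791), and HLA-DPB1 30.4, 33.2 and 40.7 CPM, 461-fold (180 to 1694). The intervals are wide because each untreated group held 4 counts. HLA-DRA reached 50.1, 51.1 and 56.8 CPM and HLA-DRB1 39.0, 44.7 and 51.7 CPM. Both rose from 1 count in 3 libraries, giving ratios of 2775 (498 to 109650) and 2397 (430 to 94707). Without the 1 untreated library that held that count, the fitted log2 change moved from 11.0 to 12.95 for HLA-DRA and from 10.78 to 12.74 for HLA-DRB1, so the size of these rises is poorly determined above the lower interval ends. HLA-DRB5 reached 7.57, 9.13 and 9.92 CPM, 157-fold over the floor, and HLA-DQA1 1.80, 2.90 and 2.11 CPM, 40.3-fold over the floor. The median fitted log2 change of the 7 was 9.45, or 8.71 with the 2 genes at 0 untreated counts set to the floor, against 0.001 over all genes.

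**Figure D2:**
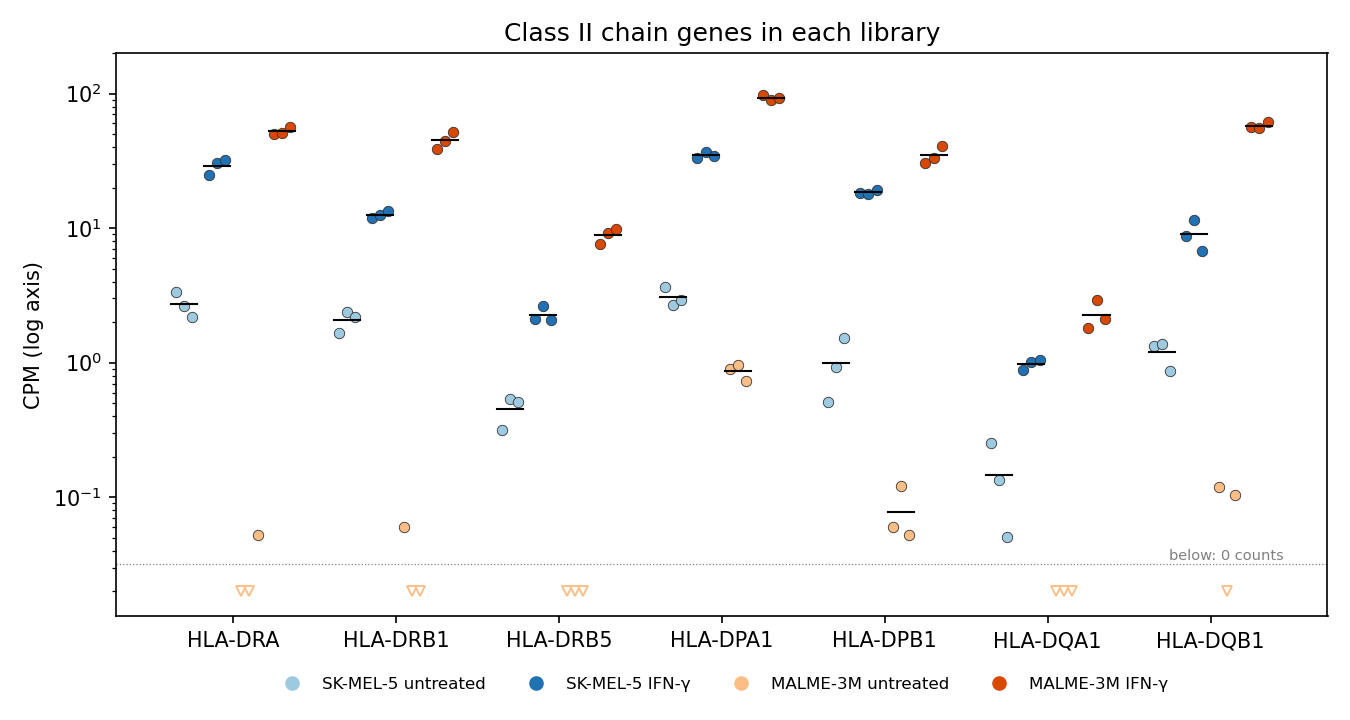
CPM of each class II chain gene on a log axis, 1 point per library, with a bar at the mean of 3 libraries where none was at 0; open triangles under the dotted line are libraries with 0 counts. In every gene the treated MALME-3M libraries are the highest of the 4 groups and the untreated MALME-3M libraries the lowest.

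The change was larger in MALME-3M than in SK-MEL-5 for all 7 genes, by a test of the difference itself in which 2.67% of all genes were called in that direction. The contrast holds the untreated gap described above as well as the treated levels. HLA-DPA1, which had counts in all 12 libraries, gave the best measured difference, 3.23 ± 0.18 on the log2 scale (SE, edgeR adjusted p = 1.44e-09). With transcript-level estimated counts, which held 16.0% to 48.3% as many reads for this gene, that difference was 1.96 and was not called (edgeR adjusted p = 0.121). For HLA-DPB1 the difference was 4.54 ± 0.53 (edgeR adjusted p = 2.1e-05) and for HLA-DQB1 6.53 ± 0.50 (edgeR adjusted p = 1.29e-07). For HLA-DRA, HLA-DRB1 and HLA-DRB5, fitted differences of 7.58, 8.20 and 8.10 rest on 0 or 1 untreated MALME-3M counts, and the first 2 moved to 9.53 and 10.17 without the library that held the 1 count. Their counting intervals still lay apart: the lower end in MALME-3M was 498 for HLA-DRA and 430 for HLA-DRB1, and the upper end in SK-MEL-5 was 12.7 and 7.24. HLA-DQA1 was the least secure, at 5.67 ± 1.37 (edgeR adjusted p = 0.025). Its call was lost when any 1 of 5 untreated libraries (SK-MEL-5 replicates 1 and 2, MALME-3M replicates 1, 2 and 3) was left out, with edgeR adjusted p from 0.0529 to 0.0776.

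**Figure D3:**
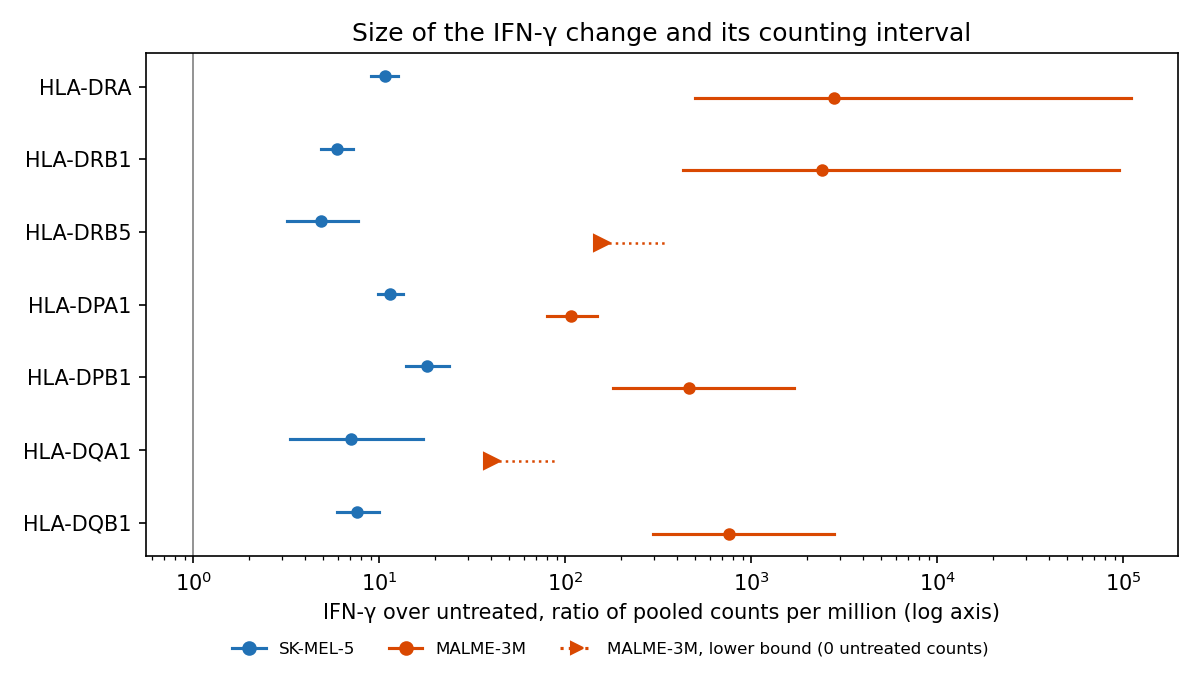
Ratio of pooled CPM, IFN-γ over untreated, for each class II chain gene in SK-MEL-5 (blue) and MALME-3M (orange), on a log axis. Lines are 95% counting intervals. Triangles are folds with 0 untreated counts set to a floor of 3 counts, without an interval. The key calls them lower bounds, but they take no counting error and are no confidence limits. The MALME-3M interval or floor value lies above the SK-MEL-5 interval in all 7 genes, closest in HLA-DQA1 (17.2 against 40.3).

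After IFN-γ the order of the lines was the opposite of that before it. All 7 genes were called higher in treated MALME-3M than in treated SK-MEL-5, without overlap, in a comparison where 35.4% of all genes were called higher and 37.0% did not overlap in that direction. HLA-DQB1 differed most, 6.37-fold (5.80 to 7.01; log2 2.68 ± 0.16, edgeR adjusted p = 1.06e-11). HLA-DRB5 was 3.94-fold (3.24 to 4.83), HLA-DRB1 3.67-fold (3.37 to 3.99) and HLA-DPA1 2.65-fold (2.52 to 2.80) higher. HLA-DPB1, at 1.91-fold (1.77 to 2.06), and HLA-DRA, at 1.85-fold (1.74 to 1.97; log2 0.87 ± 0.12, edgeR adjusted p = 1.84e-06), differed least. HLA-DQA1 was 2.37-fold higher (1.71 to 3.31; edgeR adjusted p = 0.00559), a difference that shrank to 0.18 on the log2 scale with transcript-level estimated counts (edgeR adjusted p = 0.854).

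Levels of different genes were compared per length, as CPM per kb of annotated exon. HLA-DRA was the highest class II RNA in both treated lines, at 22.6 ± 2.97 (SD, n = 3) in SK-MEL-5 and 41.1 ± 2.83 in MALME-3M. HLA-DRB1 followed at 10.2 ± 0.610 in SK-MEL-5, below HLA-DRA there without overlap, and at 36.7 ± 5.17 in MALME-3M, where the ranges over libraries overlap (31.7 to 42.1 against 39.1 to 44.4 for HLA-DRA). The DP pair came next, HLA-DPA1 at 6.07 ± 0.311 and HLA-DPB1 at 6.61 ± 0.223 in SK-MEL-5, and at 16.1 ± 0.728 and 12.5 ± 1.91 in MALME-3M. HLA-DQB1 differed in rank between the lines, at 1.83 ± 0.493 in SK-MEL-5, alongside HLA-DRB5 at 1.81 ± 0.250, and at 11.8 ± 0.697 in MALME-3M, alongside HLA-DPB1 and above HLA-DRB5 at 7.04 ± 0.947. HLA-DQA1 was the lowest in both, at 0.142 ± 0.0128 and 0.328 ± 0.0820.

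These ranks depend on which exons count as the length. The exons of all annotated transcripts span 5748 nt in HLA-DPA1, 2791 nt in HLA-DPB1, 6927 nt in HLA-DQA1 and 4904 nt in HLA-DQB1. Those of coding transcripts span 2850, 1625, 2167 and 1782 nt in the same order, while the DR genes have 1 length for both. With the length of coding transcripts, chosen after seeing the data, HLA-DPA1 in treated MALME-3M stood at 32.6 ± 1.47 CPM per kb. HLA-DQB1 there stood at 32.4 ± 1.92 CPM per kb, and both were close to HLA-DRB1. The counts were still those of the whole gene, so these are not levels of coding transcripts. In estimated counts of annotated transcripts, coding transcripts held 62.2% of HLA-DPA1 and 67.2% of HLA-DQB1 in treated MALME-3M. These estimates amounted to only 16.0% of the gene counts of HLA-DPA1 and 60.6% of those of HLA-DQB1 there. No such share could be measured for the DR genes, because all their transcripts are annotated as coding. With the coding length, HLA-DPA1 in treated SK-MEL-5 stood at 12.2 ± 0.627, above HLA-DRB1. HLA-DRA had the highest mean and HLA-DQA1 the lowest under both lengths in both lines. In kallisto TPM (transcripts per 1e6 transcripts, from the authors' deposited abundances) HLA-DQB1 in treated MALME-3M was at 25.3 ± 4.27. HLA-DRA was level with it, at 25.1 ± 4.81, and HLA-DQA1 was again lowest, at 0.843 ± 0.336. Each value is summed over all transcripts of the gene. Of the HLA-DQB1 value, 9.65, 10.4 and 11.5 TPM in the 3 libraries came from 1 transcript annotated for nonsense-mediated decay. For HLA-DRA only coding transcripts are annotated.

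**Figure D4:**
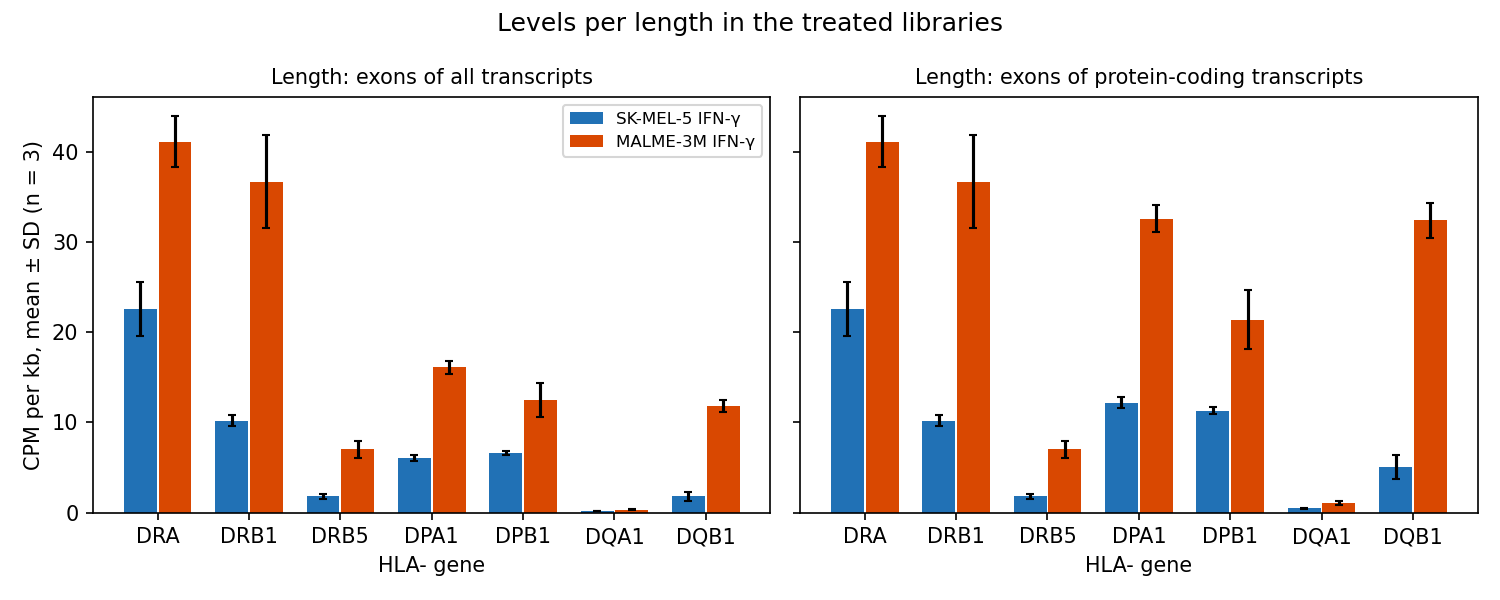
CPM per kb of exon for each class II chain gene in treated SK-MEL-5 (blue) and treated MALME-3M (orange), mean ± SD of 3 libraries, with the length taken over exons of all transcripts (left) or of coding transcripts (right). HLA-DRA is the tallest bar of each line and HLA-DQA1 the shortest under both lengths, and the DP and DQ genes stand higher with the shorter length.

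By family, DR genes took 70.2% ± 2.00 (SD, n = 3) of the summed per-length class II level in treated SK-MEL-5 and 67.5% ± 1.29 in treated MALME-3M. DP took 25.8% ± 1.5 and 22.8% ± 0.940. The DQ share was 4.02% ± 0.988 in SK-MEL-5 and 9.66% ± 0.362 in MALME-3M, with no overlap. With the coding length, still on counts of the whole gene, the DQ shares were 8.63% and 19.5%. Untreated SK-MEL-5 had 78.3% DR, 16.8% DP and 4.94% DQ, so its DP share was lower before IFN-γ than after it (14.5% to 20.6% against 24.9% to 27.5% per library). In untreated MALME-3M, where HLA-DPA1 held most of the counts, the DP share was 80.3% (70.1% to 100%), above the treated range of 22.2% to 23.9%.

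Since a class II molecule needs one chain of each kind, the beta to alpha ratio of RNA was taken within each treated library. HLA-DRB1 to HLA-DRA was 0.455 ± 0.0381 (SD, n = 3) in SK-MEL-5 and 0.890 ± 0.0705 in MALME-3M, per length, a log2 difference of 0.97 without overlap. HLA-DQB1 to HLA-DQA1 was 13.0 ± 3.51 and 37.5 ± 9.13, so the DQ beta RNA as counted exceeded the alpha RNA in every treated library of both lines. That ratio rests on 53 HLA-DQA1 counts in treated SK-MEL-5 and 139 in treated MALME-3M. How many HLA-DQA1 reads failed to align was not tested. With kallisto TPM the log2 difference was 1.60 for DR, with an SK-MEL-5 ratio of 0.299, and 2.01 for DQ; with estimated counts per length it was 1.60 and 2.48. HLA-DPB1 to HLA-DPA1 was 1.09 ± 0.0744 in SK-MEL-5 and 0.773 ± 0.131 in MALME-3M, a log2 difference of -0.51. With kallisto TPM this ratio was 1.72 and 2.22, and with estimated counts per length 2.24 and 2.67. Both its level and the direction between the lines (0.37 and 0.25 on the log2 scale) thus differed from those in gene counts. Estimated counts amounted to 24.6% of gene counts for HLA-DPA1 in treated SK-MEL-5 and 16.0% in treated MALME-3M. For HLA-DPB1 they amounted to 50.9% and 55.1%, and the cause of the reversal was not tested. A two-sided exact permutation test of 3 against 3 libraries gave p = 0.1 for each of the 3 pairs (also 0.1 when adjusted over them), which is the smallest it can give.

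Reads of these genes can be hard to assign, because HLA genes vary between people and resemble one another. The reference transcripts of HLA-DRB1 and HLA-DRB5 were 92.7% identical over 1185 aligned nt, with a longest shared run of 98 nt. Neither the alleles of the 2 lines nor whether they carry HLA-DRB5 was determined, so reference differences need not separate reads in these lines. The 60 nt of exon 2 in which the reference transcripts differ most are printed here, with the 9 differing bases in capitals. They read 5′ to 3′ on the strand of the gene.
HLA-DRB1, chr6:32584319-32584378: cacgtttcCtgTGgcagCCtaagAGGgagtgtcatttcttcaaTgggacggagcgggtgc
HLA-DRB5, chr6:32522115-32522174: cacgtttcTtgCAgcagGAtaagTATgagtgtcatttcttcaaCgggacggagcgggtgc
HLA-DRB3 and HLA-DRB4, further DR beta genes, have no row in the count table, and reads from them were not analysed here. HLA-DRB5 took 18.1% (95% Clopper-Pearson interval 12.3% to 25.3%) of the pooled HLA-DRB1 and HLA-DRB5 counts in untreated SK-MEL-5. After IFN-γ it took 15.5% (13.0% to 18.2%) in that line and 16.4% (15.2% to 17.7%) in MALME-3M, so the 3 intervals overlap. The mean share per treated library differed by 1.08 percentage points between the lines (two-sided exact permutation test, p = 0.5, n = 3 and 3). With transcript-level estimated counts the share ranged from 16.5% to 33.6% over the 6 treated libraries, so the split between these genes differed between the 2 kinds of counts. In treated SK-MEL-5 the estimates amounted to 39.2% of gene counts for HLA-DRB1 and 98.2% for HLA-DRB5. In treated MALME-3M they amounted to 61.7% and 65.6%, and the cause was not tested. Summing both genes to 1 row changed no call of the class II chains.

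HLA-DQA1 has a close relative in HLA-DQA2, with which it shared 2.07% of its 50-nt windows. HLA-DQA2 had 3 counts in untreated and 44 in treated SK-MEL-5 (15.6-fold, 5.01 to 78.6; edgeR adjusted p = 0.0028), where HLA-DQA1 had 8 and 53 counts. In MALME-3M it had 0 counts in all 6 libraries, while HLA-DQA1 had 139 counts in the treated ones. HLA-DQB2, the relative of HLA-DQB1, had 21 counts in treated SK-MEL-5 and 5 in treated MALME-3M and was not tested.

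CIITA, the transactivator of these genes, went from 2.59 ± 0.404 to 51.6 ± 5.83 CPM (SD, n = 3) in SK-MEL-5 and from 1.68 ± 0.384 to 137 ± 18.7 CPM in MALME-3M. It rose by 4.33 ± 0.14 on the log2 scale in SK-MEL-5 (SE, edgeR adjusted p = 1.53e-14) and by 6.36 ± 0.15 in MALME-3M (edgeR adjusted p = 1.21e-16). The untreated lines differed little in CIITA, 1.53-fold higher in SK-MEL-5 (1.17 to 2.02; edgeR adjusted p = 0.0154), beside ratios of 3.52 and above for the class II chains with counts in both lines. The 7 genes summed to 10.6 ± 0.413 CPM in untreated SK-MEL-5 and to 1.05 ± 0.106 CPM in untreated MALME-3M. After IFN-γ they summed to 107 ± 6.75 and 294 ± 18.3 CPM.

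Per unit of CIITA, the treated lines overlapped and the untreated lines did not. The summed class II CPM divided by CIITA CPM was 1.92, 2.47 and 1.90 in treated SK-MEL-5 and 2.11, 2.38 and 2.01 in treated MALME-3M, with overlapping ranges. It was 3.70, 4.88 and 3.96 in untreated SK-MEL-5 but only 0.576 to 0.750 in untreated MALME-3M. The ratio was thus lower after IFN-γ in one line and higher in the other.

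**Figure D5:**
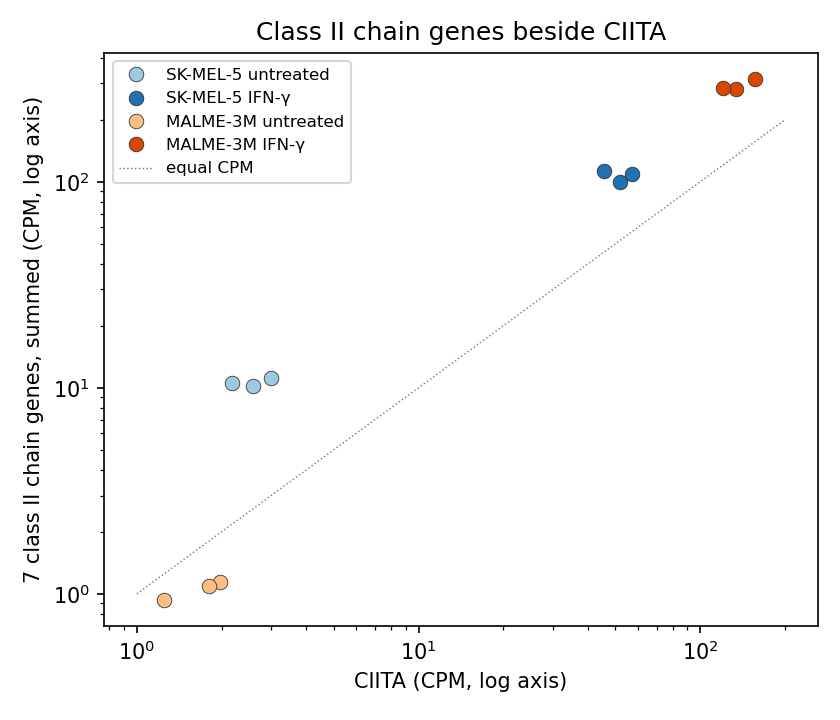
Summed CPM of the 7 class II chain genes against CPM of CIITA, both on log axes, 1 point per library, with a dotted line where both are equal. The treated libraries of both lines lie about the same height above the line (ratios 1.90 to 2.47), while untreated SK-MEL-5 lies further above it (3.70 to 4.88) and untreated MALME-3M below it (0.576 to 0.750).

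Of 21 genes of the class II machinery, 18 were tested: 9 were called higher and 0 lower in SK-MEL-5, and 8 higher and 1 lower in MALME-3M, with list medians of 0.26 and 0.21 on the log2 scale. Over all genes 7.05% and 8.77% were called lower in these comparisons. For peptide loading, 4 of the 5 listed genes were called higher in both lines. CD74, the invariant chain that guards the peptide groove, rose by 3.29 ± 0.09 in SK-MEL-5 and by 4.61 ± 0.09 in MALME-3M (edgeR adjusted p = 5.86e-16 and 5.7e-18). HLA-DMA and HLA-DMB, the peptide exchanger, rose by 1.78 and 3.83 in SK-MEL-5 and by 4.31 and 4.76 in MALME-3M. HLA-DOA, part of its inhibitor, rose 49.2-fold (26.5 to 103) in SK-MEL-5 and 136-fold over the floor in MALME-3M. HLA-DOB had 0 counts in SK-MEL-5, and 5 in untreated and 8 in treated MALME-3M, and was not tested. Of the endosomal proteases, CTSS rose by 4.04 and 4.40 and LGMN by 1.94 and 2.03, while CTSB and CTSD were not called. CTSL was called in SK-MEL-5 (0.34) and not in MALME-3M (0.09), and the difference itself was not called (edgeR adjusted p = 0.104).

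In the untreated lines the loading genes went both ways. HLA-DMA (-1.20) and HLA-DOA (10 counts against 0) were called lower in MALME-3M, and HLA-DMB (0.75, edgeR adjusted p = 0.0168) and CD74 higher. The HLA-DOA counts in SK-MEL-5 were 0, 2 and 8 per library, so the lines overlapped, unlike for the chains. HLA-DMB overlapped as well (0.636 to 1.16 CPM in SK-MEL-5 and 0.989 to 2.16 CPM in MALME-3M). CD74 was at 17.7 ± 2.95 CPM (SD, n = 3) in untreated SK-MEL-5 and at 26.5 ± 1.97 in untreated MALME-3M, higher in the latter by 0.58 ± 0.09 on the log2 scale (SE, edgeR adjusted p = 9.09e-06). The summed chains per unit of CD74 ranged over 0.513 to 0.689 without and 0.599 to 0.639 with IFN-γ in SK-MEL-5. In MALME-3M the ranges were 0.0350 to 0.0446 without and 0.435 to 0.484 with it.

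Among the DNA-bound factors the changes were small. RFX5 rose by 0.27 ± 0.06 in SK-MEL-5 (edgeR adjusted p = 0.00253) and by 0.97 ± 0.06 in MALME-3M (edgeR adjusted p = 2.98e-10), from 40.3 to 78.8 CPM in the latter, which stayed below the 114 CPM of untreated SK-MEL-5. NFYB fell by 0.26 in MALME-3M (edgeR adjusted p = 0.0158). RFXAP, RFXANK, CREB1, NFYA and NFYC were called in neither line. Upstream, the signalling genes JAK2, IRF1 and SOCS1 were called higher in each line, and IFNGR2 was called lower in SK-MEL-5. IRF1 rose by 5.35 ± 0.11 and 6.43 ± 0.12, and this difference of 1.08 was called (edgeR adjusted p = 0.000541).

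The 5 genes outside the chains whose profile was most like theirs were SBNO2 (Pearson r = 0.992), CD47 (0.983), FAM167B (0.980), AIM2 (0.980) and NNMT (0.977). Likeness was taken over the 12 libraries with the mean of the standardised log2 CPM of the 7 genes, which share treatment, line and library, so it is a description without a test. AIM2, a sensor of DNA in the cytosol, followed the same order of groups, at 2.96 CPM before and 26.0 CPM after IFN-γ in SK-MEL-5 and at 0.428 and 29.4 CPM in MALME-3M. CD47, a surface signal against phagocytosis, moved over a smaller range, from 87.1 to 115 CPM and from 61.2 to 151 CPM. The high r values thus reflect shape and not size.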

How the data were processed

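Total RNA of 12 libraries was analysed. The authors deposited gene counts (whole numbers, without normalization, with HTSeq summary lines per the file headers) and transcript tables with estimated counts and TPM, kallisto's columns per the file headers. Per the submitters' processing notes the tools were HTSeq, kallisto, STAR, cutadapt and SAMtools and the build hg38. Annotation, strand setting and molecular identifiers: not given in the sources used here. Since the strand setting is unknown, reads of HLA-DPA1 and HLA-DPB1 in their 96 shared nt, and of HLA-DQB1 and its antisense gene in 241 nt, cannot be told apart. Non-unique alignments amounted to 7.47 to 13.7 per gene count, and ambiguous ones to 4.19% to 4.54% of gene counts. The 5 summary lines were left out of library sizes and tests. Replicates differed by more than sampling noise (chi-square per gene 5.93 to 17.4).

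Counts were tested with edgeR 4.0.16 in R 4.3.3: filterByExpr with a minimum count of 10 (15810 genes), TMM scaling, and a quasi-likelihood fit with 1 mean per group over 12 libraries (8 residual degrees of freedom). SE, the absolute log2 change divided by the root of F, understates the error with few counts. All 7 genes passed the filter. Ratios of pooled counts carry 95% Clopper-Pearson intervals, which cover counting error only. Folds against 0 counts use a floor of 3 counts per group (0.0498 to 0.0572 CPM). They take no error on the counts of the other group, so they are no confidence limits. Estimated counts of the 160246 transcripts tied to genes by GENCODE 29 were summed and rounded as an alternative; they held 49.9% to 55.2% of a library's estimates, and TPM was used for description. The tests were tried on simulated counts. The 7 genes and all lists were chosen with earlier results of these data known. Named genes are the 7, fixed machinery, signalling and relative lists, and the 5 most alike by Pearson r. Some listed genes are not reported here. Alternatives were DESeq2 1.42.0, other scalings and filters, estimated counts, summed DR beta counts, fewer libraries, and, added after seeing the data, a robust fit, leaving out assembled loci, and coding-transcript lengths.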

Additional observations from a re-analysis of the deposited data

Results flagged for a closer look

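The change after IFN-γ differed between MALME-3M and SK-MEL-5 in edgeR's test of the difference itself for the 7 class II chains, on the log2 scale by 7.58 for HLA-DRA, 8.20 for HLA-DRB1, 8.10 for HLA-DRB5, 3.23 for HLA-DPA1, 4.54 for HLA-DPB1, 5.67 for HLA-DQA1 and 6.53 for HLA-DQB1, larger in MALME-3M each time. Values from 0 or 1 untreated counts (HLA-DRA, HLA-DRB1, HLA-DRB5, HLA-DQA1) depend on the fit and are no bounds. It also differed for CIITA by 2.03, RFX5 by 0.70, CD74 by 1.32, HLA-DMA by 2.53 and IRF1 by 1.08, again larger in MALME-3M. Line, dose and medium cannot be told apart in these differences.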

How the results depend on the processing

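No paired analysis was possible because the labels carry no replicate numbers. All 7 class II chains were called in the same direction in both IFN-γ comparisons under DESeq2, upper-quartile and RLE scaling, no filter, a minimum count of 30, a robust fit, without assembled loci and without any 1 library; with estimated counts 6 were called in SK-MEL-5 and 7 in MALME-3M. In untreated lines 4 were called with the 6 libraries of the comparison only, since 3 did not pass the filter. The difference of responses had 6 to 7 calls without any 1 library, 5 with estimated counts and 6 with DESeq2, which gave HLA-DQA1 no adjusted p. Estimated counts lost HLA-DQA1 in 4 comparisons, untreated lines among them (adjusted p = 0.0529), and the cause was not tested. The HLA-DPB1 to HLA-DPA1 ratio between the treated lines, -0.51 on the log2 scale, reversed to 0.37 with kallisto TPM and 0.25 with estimated counts per length; the cause was not tested. Leaving out a treated library gave -0.63 to -0.38 for DP, 0.92 to 1.04 for DR and 1.30 to 1.75 for DQ. Over all genes, estimated counts called 572, 942, 137 and 7411 in the SK-MEL-5, MALME-3M, difference and treated-line comparisons, against 2060, 2890, 705 and 11346, and 1364 were called in SK-MEL-5 without untreated replicate 2. Few untreated counts limit every fold in MALME-3M except that of HLA-DPA1.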
